A study of Sus scrofa with 24 samples.

Results

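Cholesterol synthesis and its sterol-sensing control were followed through 28 genes, listed by symbol from the mevalonate pathway, the sterol branch, the SREBP control circuit and the carriers, esterifying enzyme and uptake regulator that handle finished cholesterol. Of these, 27 were found among the 25880 genes of the count table by their Ensembl pig identifiers, and PMVK was not analysed here. RNA sequencing was done on dorsal subcutaneous fat of 24 male Iberian piglets taken shortly after weaning, 1 per litter, whose dams ate 1 of 4 diets from late gestation until weaning. The VE diet held 100 mg/kg of vitamin E (all-rac-α-tocopheryl acetate) and no hydroxytyrosol, the HT diet 30 mg/kg of vitamin E with 1.5 mg/kg of hydroxytyrosol (an olive phenol), the VEHT diet 100 mg/kg of vitamin E with 1.5 mg/kg of hydroxytyrosol, and the control diet (C) 30 mg/kg of vitamin E alone, so that every dam, controls included, received vitamin E. These are nominal doses, and by the study's feed analysis the C and HT feeds held more vitamin E than named, so that the gap between high and low diets was narrower. There were 6 piglets per diet. The supplements were given to the dams, which limits the diets as a model of direct dosing of piglets.

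Cholesterol is built from acetyl-CoA, first to mevalonate, then to squalene, and then through a long series of sterols. Cells adjust the pathway through SREBP transcription factors, which SCAP carries out of the endoplasmic reticulum when sterol is scarce and INSIG proteins hold back when it is plentiful. Adipocytes make modest amounts of cholesterol and store much of the body's free pool beside their triglyceride, while macrophages store it as esters.

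Libraries held between 36614639 (C piglet G117) and 61919211 (VE piglet G127) gene counts. Levels are given as CPM, each count divided by its library size and put on a common scale with TMM factors over all libraries, and fold changes as log2 values. All 9 adipocyte markers were read in every library, ADIPOQ and FABP4 among them, with list means between 6.99 and 10.47 log2 CPM. The C piglets G041 and G047 and the VEHT piglet G141 stood apart: the mean of 14 macrophage markers was 9.32, 8.92 and 9.19 log2 CPM in them, against 3.80 to 6.98 log2 CPM in the other 21 libraries, and their adipocyte means of 6.99, 7.37 and 7.18 log2 CPM lay under the 8.40 to 10.47 log2 CPM of the rest. Skeletal muscle markers ranged between -1.73 and 11.42 log2 CPM across the 24 libraries, and VEHT piglet G162 had a keratinocyte marker mean of 4.32 log2 CPM, against at most 0.16 log2 CPM elsewhere. In bulk tissue, fewer cells of a type and less RNA per cell cannot be told apart, and how far the cell makeup of the libraries enters the results was tested only by leaving out these 3 libraries and by fits with adipocyte or muscle markers as a covariate.

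The DNA just upstream of these genes is shown for 3 of them, because the sterol regulatory element and the CCAAT box are the letters through which SREBP and its partner NF-Y are known to act. The windows are from RefSeq on Sscrofa11.1, each 250 bases long, read on the minus strand and ending at the base before the gene start. They lie at chr16:27957262-27957511 for HMGCS1, chr5:6784725-6784974 for SREBF2 and chr2:116257144-116257393 for STARD4. Capitals mark matches to TCACNCCAC, a sterol element core, and to CCAAT, on either strand (a CCAAT on the other strand reads ATTGG).
HMGCS1: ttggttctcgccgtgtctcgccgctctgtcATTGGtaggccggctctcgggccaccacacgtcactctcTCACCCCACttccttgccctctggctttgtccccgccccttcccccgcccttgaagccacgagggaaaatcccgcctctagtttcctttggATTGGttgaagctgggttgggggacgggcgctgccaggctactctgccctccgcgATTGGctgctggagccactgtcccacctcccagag
SREBF2: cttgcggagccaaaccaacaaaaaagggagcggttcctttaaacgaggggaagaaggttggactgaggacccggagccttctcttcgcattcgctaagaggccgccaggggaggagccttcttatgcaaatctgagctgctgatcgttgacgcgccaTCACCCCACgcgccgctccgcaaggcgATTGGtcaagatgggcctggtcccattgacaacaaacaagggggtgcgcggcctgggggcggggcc
STARD4: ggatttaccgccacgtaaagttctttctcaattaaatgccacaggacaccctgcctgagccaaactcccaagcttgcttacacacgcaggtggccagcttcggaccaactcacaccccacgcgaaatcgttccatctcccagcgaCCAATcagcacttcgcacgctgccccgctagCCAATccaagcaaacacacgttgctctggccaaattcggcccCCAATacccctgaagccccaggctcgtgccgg
The sterol element core began 181 bases before the gene start in HMGCS1 and 93 bases before it in SREBF2, and in both the match was TCACCCCAC. Searched in 300-base windows with 250 bases before and 50 after the start, both strands, the core was in 3 of 25 member promoters (12%) and in 181 of 20664 protein-coding promoters (0.876%). With its free base fixed as TCACCCCAC, it was in 2 of the 25 (8%) and in 0.373% of all promoters. CCAAT was in 20 of 25 member promoters (80%), against 35.7% of all promoters, and in 14 of the 15 enzyme promoters. STARD4 held no TCACNCCAC in this window and carried 3 CCAAT boxes 105, 74 and 32 bases before its start. GGGCGG, a GC box, was in 22 of 25 (88%), against 48.9% of all promoters, and CACGTG, an E-box, in 2 of 25 (8%), against 7.64%. None of the 4 motifs contains another, and a match describes letters only.

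Counted by the sign of the fold change, 21 of the 27 genes read higher in VE than in HT fat, against 8105 of 17397 genes tested. In VEHT over VE, 7 of the 27 read higher, against 9383 of 17525 genes tested. In VE over C, 16 of the 27 read higher, against 8174 of 17532 genes tested, and 11 of the 27 signs turned without G041 and G047. None of the 27 met the threshold of the main test. The edgeR quasi-likelihood test (q of at most 0.10 after adjustment over all genes, fold change of at least 1.5) called 0 of the 27 in each of the 6 pairs, where it called 0% of the 17397 to 17607 genes tested. It called 0 of the 27 for the vitamin E effect and for the hydroxytyrosol effect, again with 0% of all genes called. For the interaction, where q alone was used, it called 0 of the 27 and 3.95% of all genes. DESeq2 on the same counts called LSS and SC5D in VE over C, STARD4 in VE over HT, LSS and CYP51A1 in VEHT over VE, and SC5D, STARD3 and SOAT1 in the interaction. Counts at an unadjusted p under 0.05 are therefore given as a description beside the share of all genes at the same level, and the 6 pairs share libraries, so their counts are not independent of each other.

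**Figure D1:**
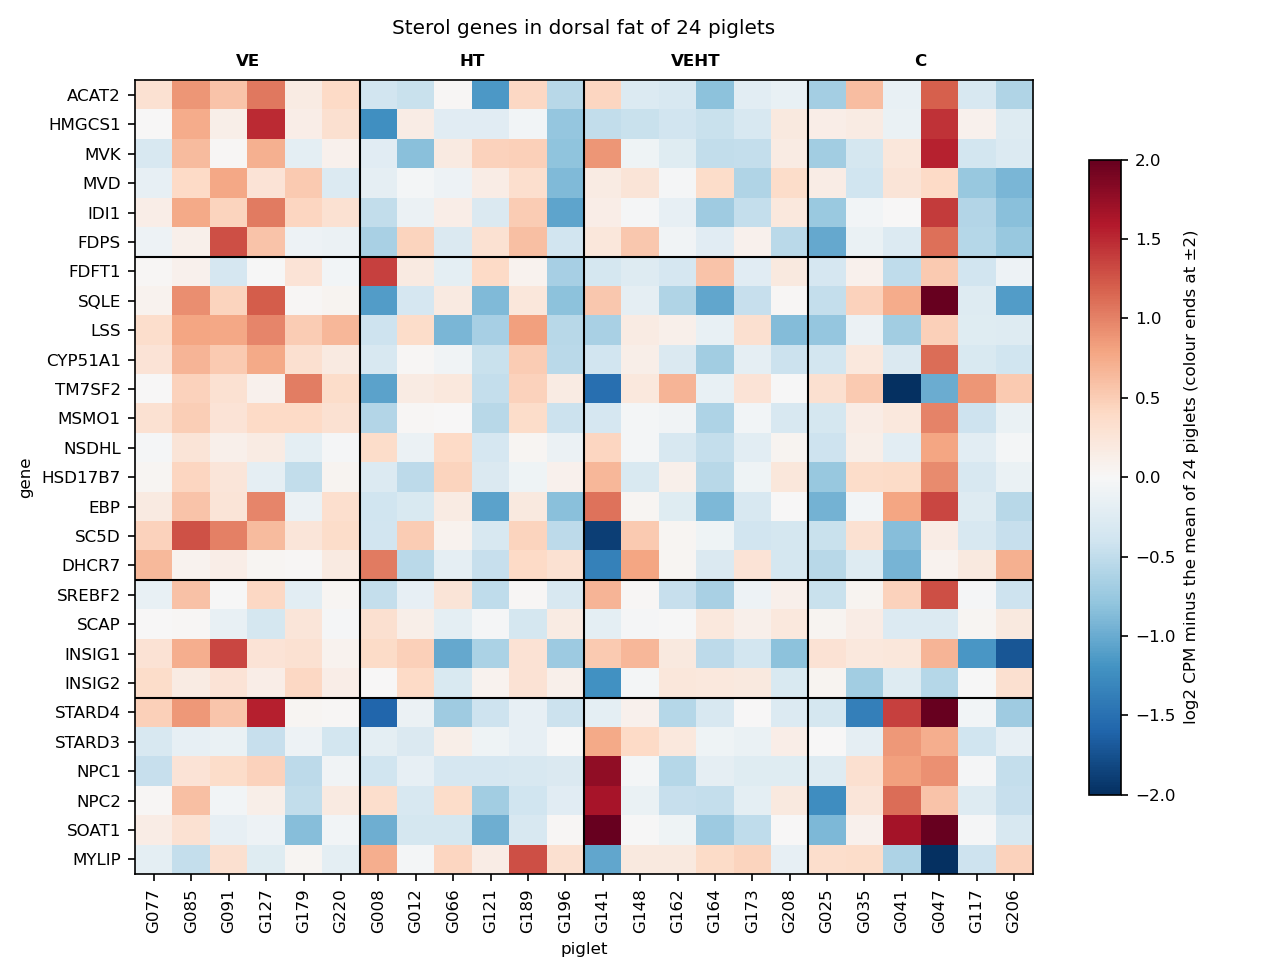
Heat map of 27 sterol genes (rows, in blocks from top to bottom of mevalonate, sterol branch, SREBP control, and transport, storage and uptake) in 24 piglets (columns, by maternal diet VE, HT, VEHT and C). Colour is log2 CPM minus the gene's mean over 24 piglets: the enzyme rows are mostly red under VE, C piglet G047 is the reddest column of the enzymes, and SOAT1, NPC1 and STARD3 in the bottom block are reddest in G141, G041 and G047.

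VE over HT uses none of the 3 libraries that stood apart. Here 11 of 27 genes (40.7%) read higher in VE at an unadjusted p under 0.05, against 4.91% of all genes: ACAT2, HMGCS1 and IDI1 of the mevalonate steps, SQLE, LSS, CYP51A1, MSMO1, EBP and SC5D of the sterol branch, INSIG1 and STARD4. Only MYLIP read lower at that level, against 4.61% of all genes. The median log2 fold change of the 27 was 0.37, beside -0.03 over all genes. STARD4 was the 1 member whose 6 VE values all lay above the 6 HT values, against 0.259% of all genes, and the 1 member that DESeq2 called higher, against 0.391% of all genes. Marker means overlapped between these diets: adipocyte means were 9.86 ± 0.39 log2 CPM in VE and 9.38 ± 0.69 log2 CPM in HT, with 9.04 ± 1.05 log2 CPM in VEHT (mean ± SD), and T cell means were -0.33 ± 1.03 log2 CPM in VE and 0.55 ± 1.84 log2 CPM in HT, with 1.99 ± 2.03 log2 CPM in VEHT. With the adipocyte mean as a covariate, 11 of 27 genes read higher in VE over HT and 12 read lower in VEHT over VE. The share of all genes was not counted in these covariate fits, so these counts cannot be set against it. The part of T cells was not tested.

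Adding hydroxytyrosol to the vitamin E diet gave differences in the other direction. In VEHT over VE, 9 of 27 genes (33.3%) read lower at an unadjusted p under 0.05, against 3.17% of all genes: ACAT2, HMGCS1, IDI1, SQLE, LSS, CYP51A1, MSMO1, SC5D and STARD4. STARD3 alone read higher, against 5.87% of all genes. The median of the 27 was -0.32, beside 0.03 over all genes. LSS, CYP51A1 and MSMO1 had every VEHT value under every VE value, against 0.2% of all genes, and LSS and CYP51A1 were called lower by DESeq2, against 0.291% of all genes. This contrast shares its VE libraries with VE over HT, so one high group of VE piglets enters both. Without VEHT piglet G141 (no C piglet enters this pair), EBP joined the list and 10 of 27 read lower, against 3.25% of all genes.

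**Figure D2:**
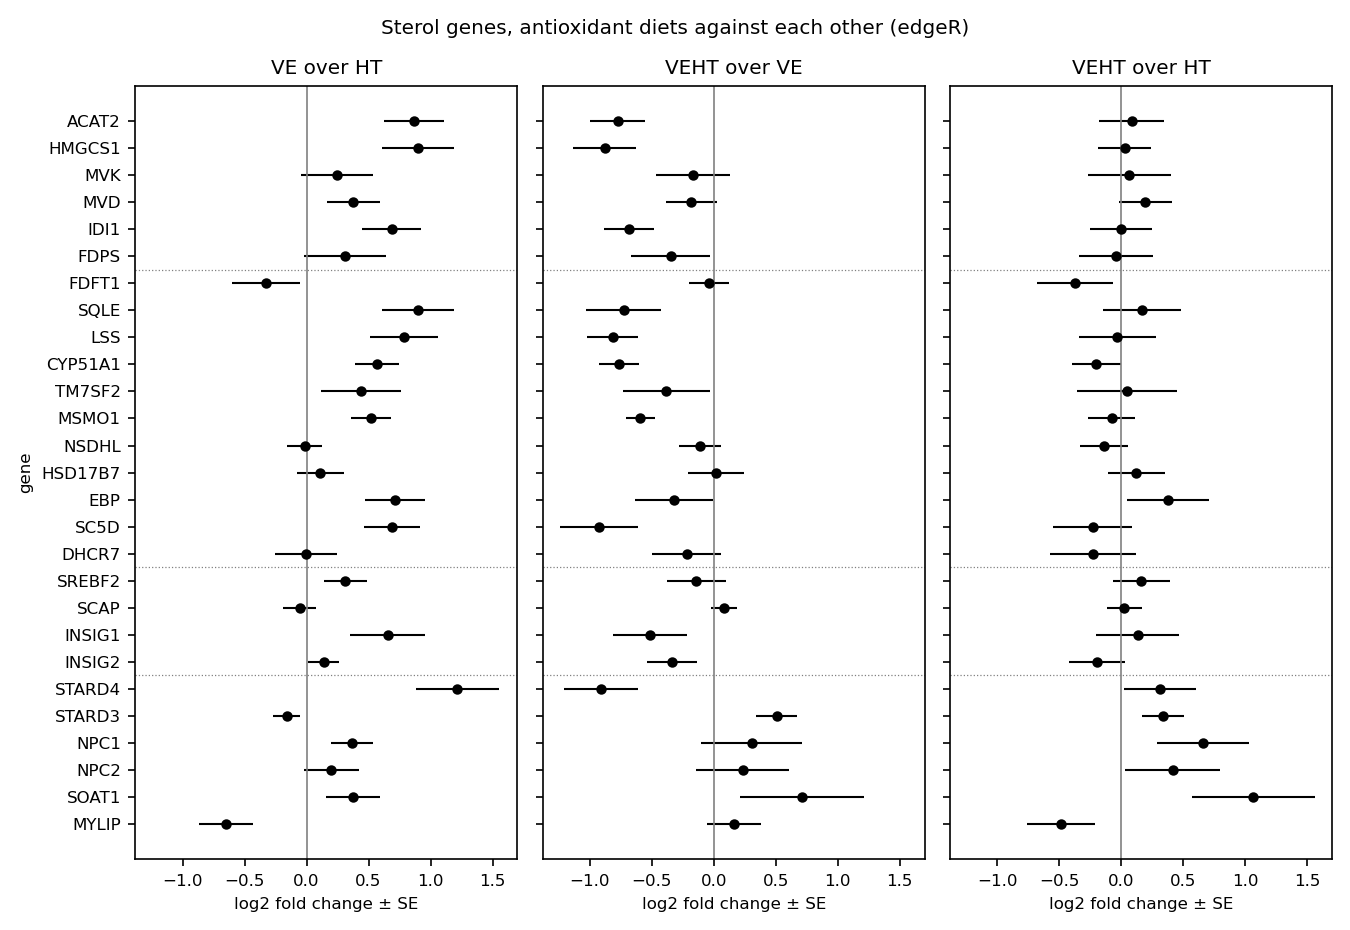
Log2 fold change (x axis, points, with bars of 1 SE) of 27 sterol genes (y axis) in VE over HT, VEHT over VE and VEHT over HT, from edgeR. Most enzymes lie right of 0 in VE over HT, with 14 of 17 positive, against 8105 of 17397 genes tested. Most lie left of 0 in VEHT over VE, with 1 of 17 positive, against 9383 of 17525 genes tested. In VEHT over HT the 27 genes have a median of 0.05.

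Against the control diet the picture depended on 3 libraries. In VE over C, LSS, SC5D and INSIG2 read higher (3 of 27, against 3.34% of all genes) and STARD3 read lower (1 of 27, against 8.77% of all genes), with a median of 0.13 over the 27. DESeq2 called LSS and SC5D higher, against 0.941% of all genes. With G041 and G047 left out (VE over C then has 4 C piglets), 13 of 27 genes (48.1%) read higher, against 3.22% of all genes: ACAT2, MVK, MVD, IDI1, FDPS, SQLE, LSS, CYP51A1, MSMO1, EBP, SC5D, INSIG1 and STARD4. The median became 0.53, and edgeR called 0 of the 27 and 0 genes in all. Without G047 alone, 7 genes read higher and the median was 0.45, and the share of all genes was not counted for that fit.

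For HT over C the same step lowered the count. HMGCS1, SQLE, STARD4, NPC1 and SOAT1 read lower in HT (5 of 27, 18.5%, against 10% of all genes) and 0 read higher, against 2.52% of all genes, with a median of -0.26. Without G041 and G047, 0 of 27 read lower, against 3.51% of all genes, and the median was 0.09. In VEHT over C, HMGCS1 read lower (1 of 27, against 1.36% of all genes; without G041, G047 and G141 0 of 27, against 3.08% of all genes) and 0 read higher, against 0.738% of all genes, and in VEHT over HT no member passed an unadjusted p of 0.05 in either direction, against 6.33% of all genes higher and 1.56% lower. The 3 contrasts with C share the 6 control libraries. Without G041, G047 and G141 the sign turned for 11 of 27 genes in VE over C, 13 in HT over C and 8 in VEHT over C, so the values without these libraries stand beside each gene below, in the same order of diets.

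**Figure D3:**
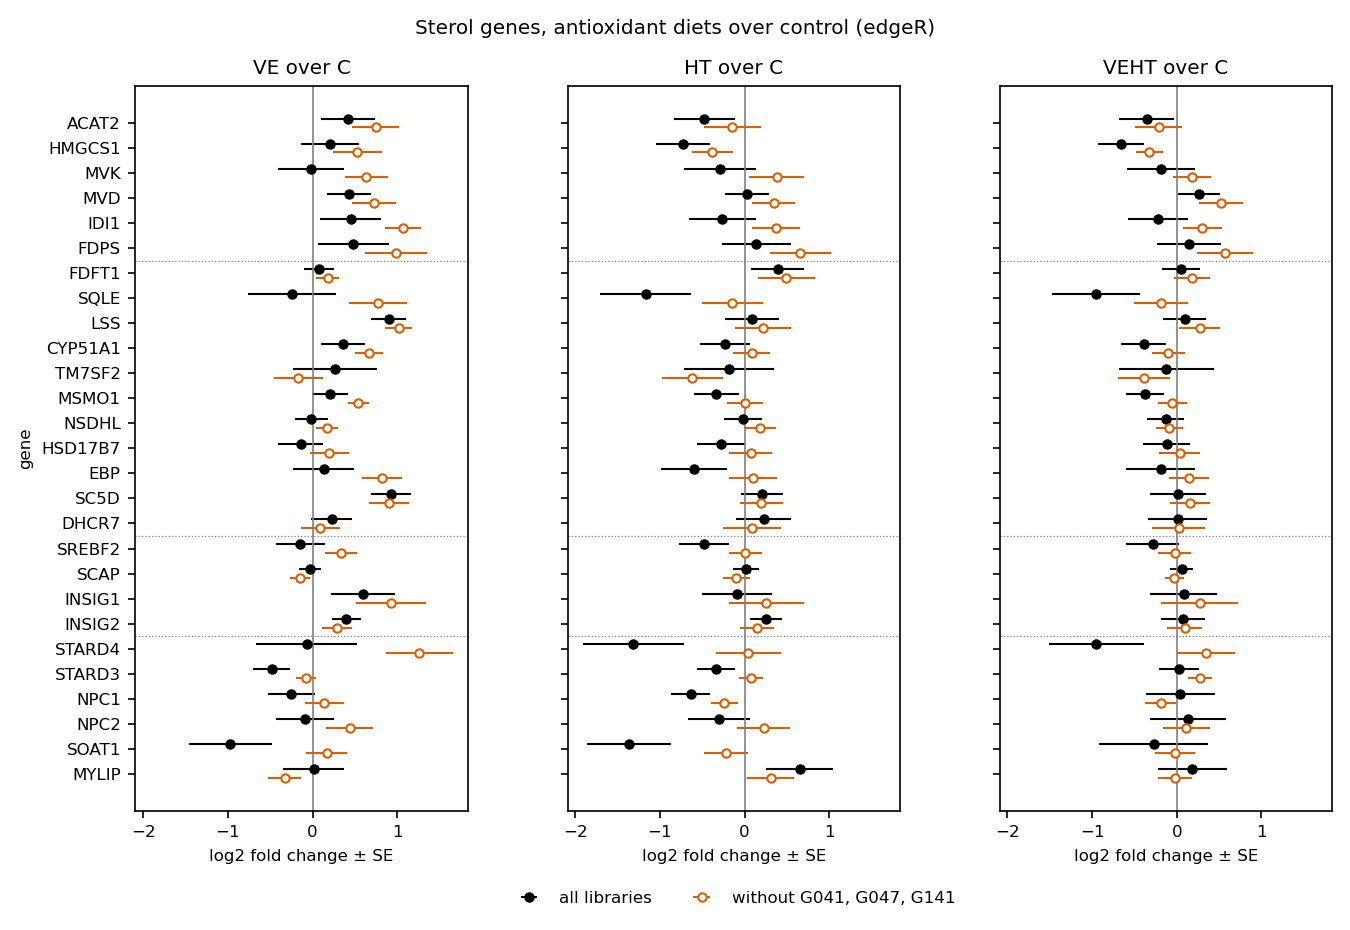
Log2 fold change (x axis, with bars of 1 SE) of 27 sterol genes (y axis) in VE over C, HT over C and VEHT over C, from edgeR. Filled points use all libraries and open points leave out G041, G047 and G141: in VE over C the median moved to 0.53 without them, against 0.13 with them, and in HT over C to 0.09, against -0.26.

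In the factorial model over 24 libraries, the effect of hydroxytyrosol, which sets HT and VEHT against VE and C, read lower at an unadjusted p under 0.05 for ACAT2, HMGCS1, SQLE, CYP51A1, MSMO1 and STARD4 (6 of 27, 22.2%, against 3.38% of all genes). Its median over the 27 was -0.27, with -0.18 without G041, G047 and G141 and -0.0828 without G047 alone. Without G041, G047 and G141 it was also 6 of 27, against 3.62% of all genes, with NPC1 in place of STARD4, and STARD3 read higher, against 4.64% of all genes. The effect of vitamin E, which sets VE and VEHT against HT and C, read higher for LSS alone (1 of 27, against 1.66% of all genes), and for 6 of 27 without the 3 libraries, against 3.39% of all genes, where MYLIP read lower, against 4.13% of all genes. The interaction is the log2 difference of VEHT over HT minus that of VE over C. For it, STARD3 and SOAT1 read higher (2 of 27, against 11.5% of all genes) and LSS and SC5D lower (2 of 27, against 3.32% of all genes). DESeq2 called STARD3 and SOAT1 higher, against 6.37% of all genes, and SC5D lower, against 0.761% of all genes. Without G041, G047 and G141, 9 of 27 genes (33.3%) had a lower interaction, against 1.68% of all genes (ACAT2, MVK, IDI1, FDPS, LSS, CYP51A1, MSMO1, EBP and SC5D), 0 had a higher one, against 2.08% of all genes, and edgeR called 0 of the 27 and 0 genes in all.

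The mevalonate steps begin with ACAT2, the cytosolic thiolase that joins acetyl-CoA units. Its lowest, median and highest values were 32.3, 40.3 and 60.0 CPM in VE, 13.0, 21.5 and 38.4 CPM in HT, 16.3, 24.4 and 38.6 CPM in VEHT, and 18.0, 24.6 and 65.9 CPM in C. VE piglets sat high as a group with some overlap with each other diet, and the highest value of all was that of C piglet G047. ACAT2 differed by 0.87 ± 0.24 (SE) in VE over HT (edgeR q = 0.49) and by -0.78 ± 0.22 in VEHT over VE (edgeR q = 0.44), and read 0.42, -0.48 and -0.35 in VE, HT and VEHT over C (without the 3 libraries 0.75, -0.14 and -0.21).

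HMGCS1 makes HMG-CoA and is a long-known target of SREBP. It had 51.0, 59.3 and 142 CPM as the lowest, median and highest in VE, 21.6, 43.3 and 55.9 CPM in HT, 35.8, 38.0 and 57.8 CPM in VEHT, and 42.2, 54.7 and 138 CPM in C. One VE piglet, G127, and one C piglet, G047, were far above the rest of their diets, and 5 of 6 VEHT values lay under every C value. The contrasts were 0.90 ± 0.29 in VE over HT (edgeR q = 0.49) and -0.88 ± 0.25 in VEHT over VE (edgeR q = 0.44). HMGCS1 read 0.21, -0.73 and -0.66 in VE, HT and VEHT over C (without the 3 libraries 0.53, -0.38 and -0.32), and its promoter holds the sterol element shown above.

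IDI1, the isomerase of isopentenyl diphosphate, had 32.2, 40.0 and 60.4 CPM in VE, 14.2, 25.8 and 42.2 CPM in HT, 18.1, 27.8 and 34.2 CPM in VEHT, and 16.5, 24.1 and 77.9 CPM in C. VE again lay high, and the C diet reached above it only through G047. Its values were 0.69 ± 0.24 in VE over HT (edgeR q = 0.49), -0.68 ± 0.20 in VEHT over VE (edgeR q = 0.44), and 0.45, -0.26 and -0.22 in VE, HT and VEHT over C (without the 3 libraries 1.07, 0.37 and 0.30). Its 1.07 in VE over C without G041 and G047 had an SE of 0.21 (edgeR q = 0.367).

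The other mevalonate genes did not pass an unadjusted p of 0.05 in any pair with all libraries. The kinase MVK read -0.02, -0.29 and -0.19 in VE, HT and VEHT over C (without the 3 libraries 0.63, 0.38 and 0.18). MVD, the decarboxylase, read 0.43, 0.03 and 0.26 (without the 3 libraries 0.73, 0.34 and 0.52). FDPS, the farnesyl diphosphate synthase, read 0.48, 0.14 and 0.14 (without the 3 libraries 0.99, 0.66 and 0.58), from only 37 to 252 counts per library.

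**Figure D4:**
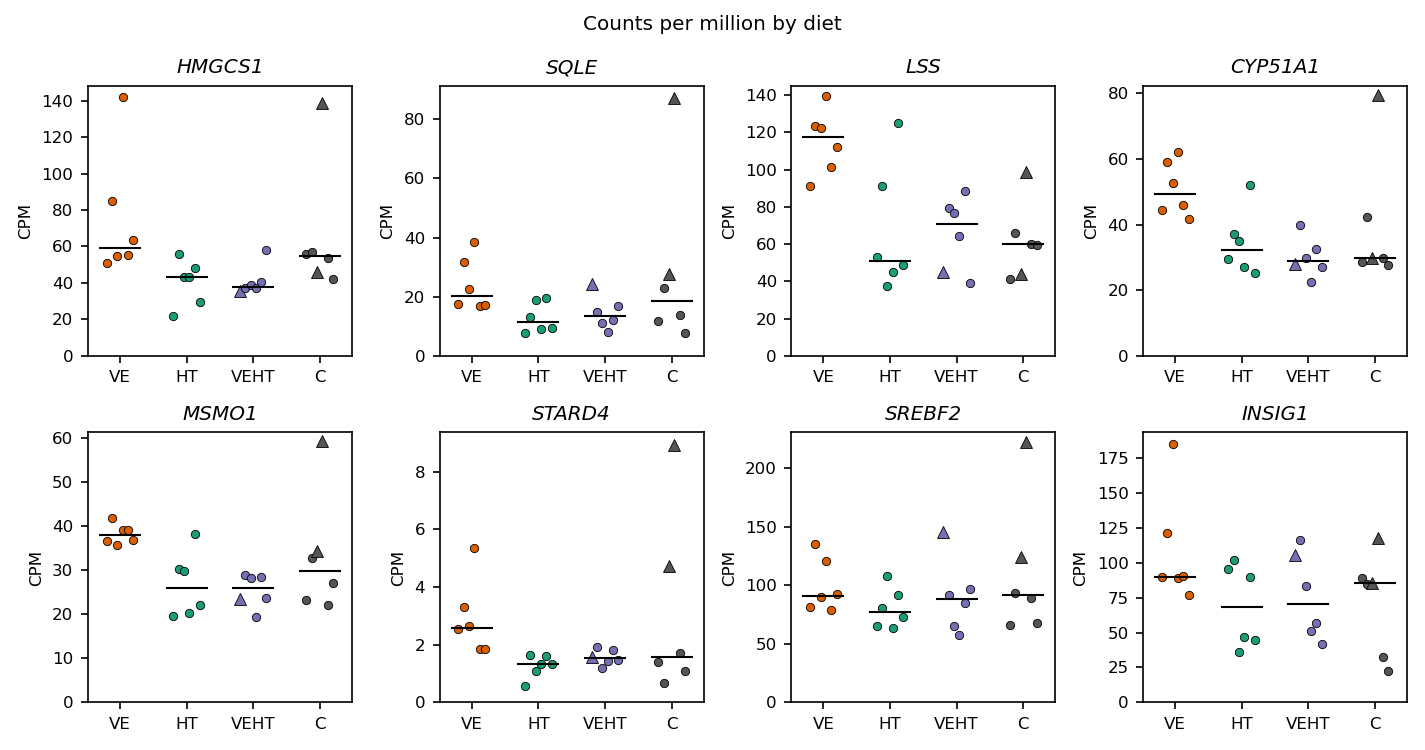
CPM (y axis, from 0) of 8 sterol genes in each piglet by maternal diet (x axis, VE, HT, VEHT and C), with the median of 6 as a line and G041, G047 and G141 as triangles. For LSS, CYP51A1 and MSMO1 every VEHT point is under every VE point, and the top C point of HMGCS1, SQLE, LSS, CYP51A1, MSMO1, STARD4, SREBF2 and INSIG1 is G047.

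In the sterol branch, SQLE epoxidises squalene and is a rate-controlling step of the pathway. It had 16.9, 20.1 and 38.6 CPM in VE, 7.69, 11.3 and 19.5 CPM in HT, 8.12, 13.4 and 24.3 CPM in VEHT, and 7.67, 18.5 and 87.2 CPM in C. The 87.2 CPM of G047 was more than any other library of the 24, and the remaining C values overlapped all diets. SQLE read 0.90 ± 0.29 in VE over HT (edgeR q = 0.49), -0.73 ± 0.30 in VEHT over VE (edgeR q = 0.51), and -0.24, -1.17 and -0.95 in VE, HT and VEHT over C (without the 3 libraries 0.77, -0.14 and -0.19).

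LSS closes the ring to give lanosterol, the first sterol. Its values were 91.2, 117.4 and 140 CPM in VE, 37.6, 50.9 and 125 CPM in HT, 39.0, 70.6 and 88.7 CPM in VEHT, and 41.5, 59.9 and 98.6 CPM in C. All 6 VE piglets stood above all 6 VEHT piglets, and HT piglets G189 and G012 and C piglet G047 reached into the VE range. By DESeq2, LSS rose in VE over C (0.89 ± 0.22, q = 0.00653) and fell in VEHT over VE (-0.81 ± 0.22, q = 0.029). The edgeR values were 0.90 ± 0.21 in VE over C (q = 0.31) and -0.82 ± 0.20 in VEHT over VE (q = 0.44), with 0.09 in both HT and VEHT over C (without the 3 libraries the contrasts with C were 1.02, 0.22 and 0.27 in VE, HT and VEHT). In VE over C, 21 of 21 alternatives kept an unadjusted p under 0.05 for it, with fold changes between 0.78 and 1.08.

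CYP51A1, the lanosterol demethylase, had 41.7, 49.4 and 62.1 CPM in VE, 25.3, 32.3 and 52.1 CPM in HT, 22.6, 29.0 and 39.9 CPM in VEHT, and 27.8, 29.8 and 79.4 CPM in C. VE and VEHT did not overlap. It fell in VEHT over VE by DESeq2 (-0.76 ± 0.17, q = 0.00569), where edgeR gave -0.77 ± 0.16 (q = 0.44). CYP51A1 read 0.36, -0.23 and -0.39 in VE, HT and VEHT over C (without the 3 libraries 0.67, 0.08 and -0.10).

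MSMO1 oxidises the methyl groups of the early sterols. The VE piglets were tightly grouped, with 35.9, 38.0 and 42.0 CPM, against 19.7, 26.0 and 38.2 CPM in HT, 19.4, 26.0 and 29.0 CPM in VEHT, and 22.2, 30.0 and 59.4 CPM in C. Every VEHT value lay under every VE value, and 5 of 6 HT values did too. DESeq2 gave it -0.58 ± 0.12 in VEHT over VE (q = 0.00156), which passed the q threshold and missed the fold threshold of 1.5. MSMO1 read -0.59 ± 0.12 in VEHT over VE by edgeR (q = 0.44), 0.52 ± 0.16 in VE over HT (edgeR q = 0.49), and 0.21, -0.34 and -0.37 in VE, HT and VEHT over C (without the 3 libraries 0.54, 0.0048 and -0.05).

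SC5D, a desaturase late in the branch, had 35.1, 43.4 and 71.3 CPM in VE, 20.6, 27.4 and 42.1 CPM in HT, 7.98, 25.4 and 42.5 CPM in VEHT, and 16.3, 22.8 and 36.5 CPM in C. The lowest VEHT value was that of G141 and the lowest C value that of G041. SC5D rose in VE over C by DESeq2 (0.92 ± 0.26, q = 0.0175), where edgeR gave 0.93 ± 0.23 (q = 0.31). HT and VEHT over C read 0.21 and 0.01 (without the 3 libraries the contrasts with C were 0.90, 0.20 and 0.15 in VE, HT and VEHT). Its interaction was -1.15 ± 0.41 (edgeR q = 0.169), which DESeq2 called (q = 0.0897), and -0.94 ± 0.35 without the 3 libraries.

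The remaining branch enzymes overlapped between diets. EBP, the sterol isomerase, read 0.13, -0.60 and -0.19 in VE, HT and VEHT over C (without the 3 libraries 0.82, 0.10 and 0.14) and 0.71 ± 0.24 in VE over HT (edgeR q = 0.49). FDFT1, the squalene synthase, read 0.08, 0.39 and 0.05 over C (without the 3 libraries 0.18, 0.49 and 0.18). TM7SF2, a sterol reductase with 7 to 85 counts per library, read 0.27, -0.18 and -0.12 (without the 3 libraries -0.17, -0.62 and -0.39). NSDHL, which takes part in removing the methyl groups, read -0.02, -0.02 and -0.13 (without the 3 libraries 0.17, 0.18 and -0.09). HSD17B7, a ketone reductase of the same step, read -0.14, -0.27 and -0.12 (without the 3 libraries 0.20, 0.07 and 0.04). DHCR7, which makes cholesterol in the last step of one route, read 0.22, 0.23 and 0.01 (without the 3 libraries 0.09, 0.09 and 0.02).

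Of the control genes, SREBF2 encodes the SREBP that chiefly drives this pathway, and its own promoter holds the sterol element core. It had 78.5, 91.3 and 135 CPM in VE, 63.5, 76.8 and 108 CPM in HT, 57.6, 88.1 and 145 CPM in VEHT, and 66.1, 91.6 and 222 CPM in C. All diets overlapped, with G141 highest in VEHT and G047 highest in C. SREBF2 read 0.31 ± 0.18 in VE over HT (edgeR q = 0.575), -0.14 ± 0.24 in VEHT over VE (edgeR q = 0.896), and -0.15, -0.48 and -0.28 in VE, HT and VEHT over C (without the 3 libraries 0.33, 0.01 and -0.02).

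INSIG1, which retains SCAP and is itself an SREBP target, had 76.8, 90.0 and 185 CPM in VE, 35.9, 68.2 and 102 CPM in HT, 41.6, 70.1 and 116 CPM in VEHT, and 22.4, 85.2 and 118 CPM in C. The low ends of HT, VEHT and C lay well under the lowest VE piglet, and their high ends overlapped it. INSIG1 read 0.65 ± 0.30 in VE over HT (edgeR q = 0.523) and 0.60, -0.09 and 0.08 in VE, HT and VEHT over C (without the 3 libraries 0.93, 0.26 and 0.27). INSIG2, its paralogue, read 0.40, 0.25 and 0.07 (without the 3 libraries 0.29, 0.15 and 0.09). SCAP, the escort, read -0.03, 0.01 and 0.06 (without the 3 libraries -0.14, -0.10 and -0.03).

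Among genes that move and store cholesterol, STARD4, a soluble carrier between membranes, went with the enzymes. It had 1.84, 2.60 and 5.35 CPM in VE, 0.569, 1.33 and 1.65 CPM in HT, 1.20, 1.52 and 1.91 CPM in VEHT, and 0.669, 1.56 and 8.94 CPM in C. Every VE value lay above every HT value, and the 8.94 CPM was that of G047. STARD4 rose in VE over HT by DESeq2 (1.22 ± 0.33, q = 0.0529), where edgeR gave 1.22 ± 0.34 (q = 0.49), and read -0.91 ± 0.30 in VEHT over VE (edgeR q = 0.44). Over C it read -0.07, -1.32 and -0.95 in VE, HT and VEHT, and without the 3 libraries these were 1.26, 0.04 and 0.34.

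SOAT1 esterifies cholesterol for storage and is abundant in macrophages. It had 11.2, 19.3 and 25.2 CPM in VE, 10.3, 15.9 and 20.6 CPM in HT, 12.3, 19.7 and 99.6 CPM in VEHT, and 10.9, 20.8 and 93.9 CPM in C. G141, G047 and G041, the 3 libraries with the highest macrophage marker means, held the 3 highest values at 99.6, 93.9 and 64.7 CPM, and the other 21 spanned 10.3 to 25.2 CPM. SOAT1 read -0.97, -1.37 and -0.27 in VE, HT and VEHT over C, with an interaction of 2.03 ± 0.72 (edgeR q = 0.163) that DESeq2 called (q = 0.0676). Without the 3 libraries the interaction was 0.05 ± 0.33 and the contrasts with C were 0.17, -0.22 and -0.02.

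NPC1, which exports cholesterol from lysosomes, had 19.8, 30.7 and 39.0 CPM in VE, 21.6, 22.7 and 25.3 CPM in HT, 19.1, 24.5 and 97.5 CPM in VEHT, and 20.5, 31.7 and 53.7 CPM in C. The HT piglets were close together at the low end, and G141 and G047 set the upper ends of their diets. NPC1 read -0.25, -0.64 and 0.04 in VE, HT and VEHT over C (without the 3 libraries 0.14, -0.24 and -0.19). NPC2, its soluble partner, read -0.09, -0.31 and 0.14 (without the 3 libraries 0.44, 0.22 and 0.12).

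STARD3 tethers late endosomes to the endoplasmic reticulum and moves sterol between them. It had 16.2, 18.9 and 20.9 CPM in VE, 18.2, 20.6 and 24.3 CPM in HT, 20.3, 25.2 and 37.8 CPM in VEHT, and 17.0, 21.2 and 40.9 CPM in C. VE was the lowest diet and overlapped VEHT only at its edge. STARD3 read 0.51 ± 0.17 in VEHT over VE (edgeR q = 0.44), 0.37 without G141, and -0.48, -0.34 and 0.03 in VE, HT and VEHT over C (without the 3 libraries -0.08, 0.07 and 0.27). Its interaction of 0.82 ± 0.27 (edgeR q = 0.129), called by DESeq2 (q = 0.0683), was 0.29 ± 0.17 without the 3 libraries.

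MYLIP marks lipoprotein receptors for degradation, so it acts against uptake. It had 60.9, 73.9 and 106 CPM in VE, 82.3, 110 and 206.03 CPM in HT, 41.01, 96.6 and 115 CPM in VEHT, and 17.3, 85.6 and 116 CPM in C. HT lay highest, and G141 and G047 were the lowest of VEHT and C. MYLIP read -0.65 ± 0.22 in VE over HT (edgeR q = 0.49) and 0.01, 0.65 and 0.18 in VE, HT and VEHT over C (without the 3 libraries -0.33, 0.31 and -0.02).

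**Figure D5:**
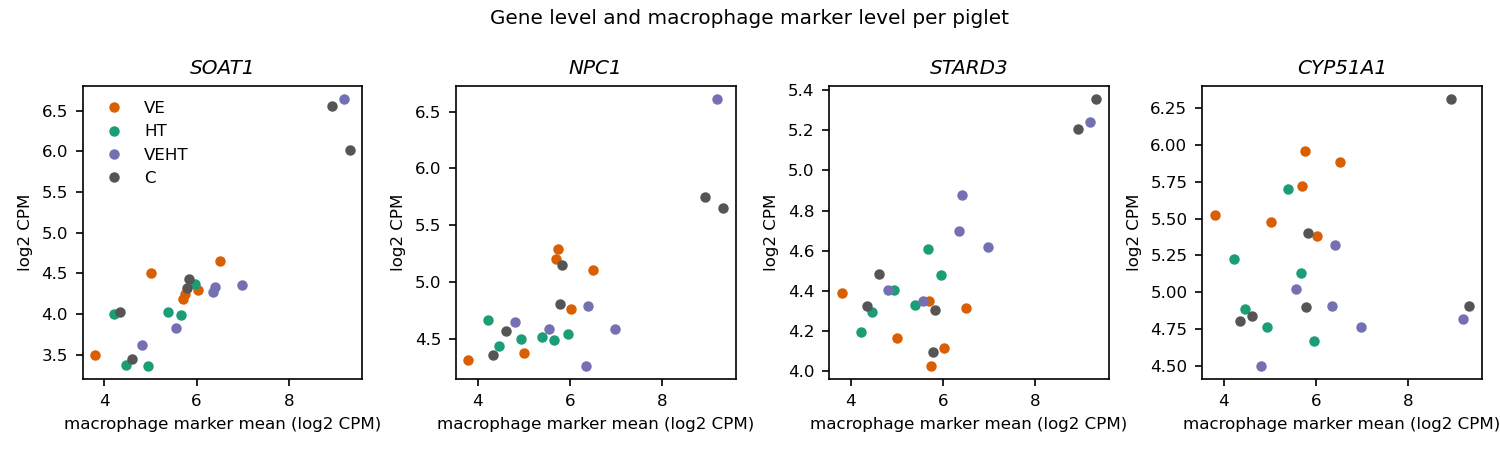
Level of SOAT1, NPC1, STARD3 and CYP51A1 (y axis, log2 CPM) against the mean of 14 macrophage markers (x axis, log2 CPM) in 24 piglets, coloured by maternal diet. The 3 points at the right are G047, G141 and G041, which hold the top 3 SOAT1, NPC1 and STARD3 values, while for CYP51A1 only G047 is high.

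How the genes varied between piglets was also described by role. The mean log2 CPM of the 17 enzymes was lowest at 4.39, median 4.56 and highest 4.86 in VE, 3.77, 4.07 and 4.60 in HT, 3.86, 4.12 and 4.32 in VEHT, and 3.79, 4.02 and 5.13 in C. VE and VEHT did not overlap, and G047 alone took the C diet above the VE range. G047 was the highest of 24 libraries for 9 of the 17 enzymes. Its macrophage mean was 8.92 log2 CPM, against 9.32 log2 CPM in G041 and 9.19 log2 CPM in G141. Single macrophage markers ranked these 3 in different orders, with CD163 highest in G047 and CD68 highest in G141. Whether enzyme levels go with macrophage content was not tested. The enzyme mean of G041 was 4.03 and that of G141 4.12, both inside the range of the other piglets, against 5.13 in G047.

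Genes next to this pathway gave a mixed picture. Of 26 other sterol genes (further enzymes, efflux, sensing and sterol oxidation), 24 were tested, and their medians were -0.10, -0.01 and -0.05 in VE, HT and VEHT over C, with 0 higher and 1 lower at an unadjusted p under 0.05 in VE over C (3.34% and 8.77% of all genes) and 1 higher and 4 lower in HT over C (2.52% and 10% of all genes). RNF139, a ubiquitin ligase of the endoplasmic reticulum that takes part in sterol control, had an interaction of -0.35 ± 0.12 (edgeR q = 0.153). The 8 fatty acid synthesis genes, with the regulator SREBF1 among them, read higher in VE over C for 8 of 8, against 8174 of 17532 genes tested. Of these, 7 did so at an unadjusted p under 0.05 (3.34% of all genes). Their median was 1.15, beside 0.42 for the 6 mevalonate genes and 0.21 for the 11 sterol branch genes. These medians use all libraries, with G041 and G047 among the C piglets. Without G041 and G047 the median of the 27 sterol genes in VE over C was 0.53, against 0.13 with them. The median of the fatty acid synthesis genes was not taken without them, so the part of these piglets in the gap was not tested. In VEHT over VE, 7 of the 8 read lower at an unadjusted p under 0.05 (3.17% of all genes) with a median of -0.93, and edgeR called 2 of them in the interaction (3.95% of all genes), ACACA (-1.21 ± 0.35, q = 0.0815) and FASN (-2.62 ± 0.81, q = 0.0957). Without G041, G047 and G141, edgeR called 0 genes in the interaction, so ACACA and FASN were not called there. These lists were drawn up with earlier results of these data known and were not tested as sets.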

How the data were processed

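The 28 members and all gene lists were chosen with earlier results of these data known. After trimming by TrimGalore, the authors aligned reads to the pig genome Sscrofa11.1 and counted them by gene (HTSeq). The aligner is named HISAT in the paper and HISAT2 in the sample labels. Unnormalised counts by Ensembl identifier were deposited. Versions, the annotation release and the strand setting are not given in the sources used here. Counter summary entries, 17.9% to 25.0% of each library, were left out. Symbols were matched to identifiers, taking the identifier with most counts.

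The main test was the edgeR 4.0.16 quasi-likelihood F test with TMM factors in R 4.3.3, fitted to the 12 libraries of each pair, or to all 24 for the factorial model. Genes with 0 counts in at least 75% of the libraries were dropped, and p-values were adjusted over all genes tested (Benjamini-Hochberg). CPM used TMM factors over 24 libraries, and log2 CPM a prior count of 2. SEs are the log2 fold change over the square root of F. DESeq2 1.42.0, limma 3.58.1 and the other alternatives are in the closing section. The same functions were tested on simulated counts.

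All members were named with their contrasts over C. Library values were given for the 12 members of smallest unadjusted p in a pair or the interaction, and for SREBF2, INSIG1, HMGCS1, SQLE, STARD4, NPC1 and SOAT1. Promoter windows were read from the RefSeq genome of the same build for the 25 members matched to 1 RefSeq gene. The other windows are not printed here. Replicates were separate piglets of separate litters.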

Additional observations from a re-analysis of the deposited data

Results flagged for a closer look

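Single piglets far from the other 5 of their diet were found in 9 of 120 groups of 6 by Dixon's test, and chance flags about 1 in 20 independent groups. The 120 groups share the same piglets and include means over the same genes. They are thus not independent, and the 9 cannot be read as an excess. VEHT piglet G141 gave 6 of the 9. It was lowest in log2 CPM for SC5D (3.00, others 4.51 to 5.41) and INSIG2 (2.90, others 3.81 to 4.34), and highest for NPC1 (6.61, others 4.26 to 4.79), NPC2 (9.61, others 7.49 to 8.16), SOAT1 (6.64, others 3.62 to 4.36) and the mean of the transport, storage and uptake genes (5.69, others 4.58 to 4.90). Its macrophage marker mean of 9.19 log2 CPM and adipocyte marker mean of 7.18 log2 CPM stood apart too, and their part in these values was not tested.

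HMGCS1 was flagged in both VEHT and C. VEHT piglet G208 had 5.85 log2 CPM (others 5.16 to 5.35), and C piglet G047 had 7.11 log2 CPM (others 5.40 to 5.83). DHCR7 was flagged in VE, where G077 had 5.67 log2 CPM (others 5.05 to 5.21).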

How the results depend on the processing

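Over the alternatives, 8 to 13 of 27 genes read higher at an unadjusted p under 0.05 in VE over HT, with medians of 0.30 to 0.45. In VEHT over VE, 7 to 12 read lower, with medians of -0.51 to -0.22. Leaving out G041, G047 and G141 could not move VE over HT, which holds none of them, and took only G141 from VEHT over VE. That setting therefore does not compare these pairs with the contrasts with C. VE over C and HT over C moved more, also with voom and the covariates. Shares of all genes were counted only for the main fits, the DESeq2 calls and the fits without these 3 libraries. The other counts in this paragraph cannot be set against such a share. In VE over C the count higher was 9 with voom quality weights and 13 without G041, G047 and G141 (3.22% of all genes). It was 6 with the muscle marker covariate, 8 with the adipocyte marker covariate, and 2 to 7 leaving out single piglets (7 without G047). Its median was 0.53 without the 3 libraries, 0.48 with the adipocyte covariate, and 0.0357 to 0.45 leaving out single piglets. In HT over C the count lower was 0 with voom, with either covariate and without the 3 libraries (3.51% of all genes). It was 1 to 5 leaving out single piglets (2 without HT piglets G008, G121 or G196 or C piglet G041, 3 without HT piglets G012 or G066, 1 without C piglet G047). Its median was 0.0351 with voom, 0.0880 without the 3 libraries and 0.0330 with the muscle covariate, and without the 3 libraries 13 of 27 genes changed sign, STARD4 to 0.0444 among them. The hydroxytyrosol effect was lower for 6 to 10 genes leaving out single piglets (10 without G141), with medians of -0.32 to -0.0828 (-0.0828 without G047). The interaction was lower for 6 genes with voom, 9 without the 3 libraries and 1 to 6 leaving out single piglets (6 without G047, 1 without G189), with a median of -0.54 without the 3 libraries. Members called with DESeq2 were 2 in VE over C (0.941% of all genes higher) and 1 in VE over HT (0.391% higher). They were 2 in VEHT over VE (0.291% lower) and 3 in the interaction (6.37% higher and 0.761% lower). Leaving out single piglets, edgeR called 0 to 1 in the interaction (1 without C piglets G025, G035, G117 or G206 or VEHT piglets G148, G164 or G173). The causes were not tested. No paired analysis was possible because the piglets of different diets came from separate litters and their replicate numbers only count piglets within a diet. FDPS, TM7SF2 and STARD4 had few counts, which limits their precision.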
